A study of Homo sapiens with 5 samples.

Results

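Histone methylation writers and erasers are the enzymes that add methyl groups to lysines of histone tails or take them off again. They were picked here by gene symbol alone: all symbols that begin with KDM, KMT, SETD or PRDM followed by a digit, together with NSD1 to NSD3, EHMT1, EHMT2, SUV39H1, SUV39H2, EZH1, EZH2 and DOT1L, without SETD3. Of the 14042 gene symbols in the deposited table, 54 met this rule, and 48 of them had enough counts to be tested. By role the 54 were 18 writers grouped by histone lysine, 18 erasers, 14 PRDM proteins and 4 SETD proteins. These SETD proteins have no one histone mark as their settled target (SETD4, SETD5, SETD6 and SETD9). KMT2E, whose enzyme activity is not settled, is counted with the H3K4 writers by family.

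The libraries hold ribosome footprints, the short mRNA fragments that a translating ribosome shields from nuclease, so a count reports how many ribosomes sat on a gene's mRNA. A higher footprint count can come from more mRNA or from more ribosomes on each mRNA, and these data cannot tell the 2 apart. All libraries came from HAP1, a near-haploid human cell line derived from the chronic myeloid leukaemia line KBM-7. Wild type cells (n = 2) were compared with cells whose METTL18 gene, encoding a histidine methyltransferase, was knocked out (n = 3), and no drug or time course was applied to either group per the labels. The allele of the knockout, the number of clones and whether the replicates were separate cultures are not stated in the labels, so the p-values below reflect library-to-library spread that may be technical alone, and the genotype and the clone cannot be told apart.

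Lysine methylation marks chromatin states. Methylated H3K4 (lysine 4 of histone H3), H3K36 and H3K79 are typical of active genes, whereas methylated H3K9 and H3K27 are typical of silent ones, and H4K20 methylation accompanies cell division and chromatin compaction. Writers carry a SET domain, apart from DOT1L, and take the methyl group from S-adenosylmethionine. Erasers are either flavin-dependent oxidases (the KDM1 family) or Jumonji oxygenases that use iron and 2-oxoglutarate. PRDM proteins pair a domain related to SET with zinc fingers, and many act mainly as DNA-binding regulators.

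Wild type libraries held 5302160 and 4887380 counts and knockout libraries 16339574 to 17629199, so the knockout was on average 3.33-fold deeper. METTL18 itself, the check of the labels, had 33 and 32 counts in the wild type against 33, 32 and 34 in the deeper knockout libraries. This corresponds to 5.70 ± 0.211 CPM (counts scaled to library size, here with TMM factors; SD, n = 2) against 2.10 ± 0.117 (n = 3), a log2 fold change of -1.44 (SE 0.247, edgeR adjusted p = 2.0e-06). Footprints over METTL18 thus fell but did not disappear, which does not show whether the remaining reads come from an altered transcript. Of 22 markers of blood, epithelial, fibroblast and endothelial cells, 12 had a row in the table, and their summed level ran from 174 to 180 CPM in the wild type and from 218 to 222 CPM in the knockout. Among 3 measured blood markers, CD33 was at 0 in all libraries, CD34 was at or below 0.366 CPM, and KIT fell from 11.1 to 7.81 CPM (log2 fold change -0.50, edgeR adjusted p = 0.00546). Most of the marker sum was the keratin KRT18, at 145 CPM in the wild type against 171 CPM in the knockout, while CDH1 (E-cadherin) went from 0.0842 to 12.4 CPM. HAP1 carries a BCR-ABL1 fusion gene; BCR was at 6.68 CPM in the wild type against 8.10 CPM in the knockout, and ABL1 at 1.12 and 4.79 CPM. In bulk libraries such as these, fewer cells of a kind and less RNA per cell cannot be told apart, and the part of these marker differences in the results below was not tested.

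Among the 48 tested writers and erasers, 20 were higher and 17 lower in the knockout by edgeR's quasi-likelihood test (Benjamini-Hochberg adjusted p under 0.05 over all genes tested), and 11 did not pass. That is 77.1% of the tested members, beside 74.4% of the 11335 genes tested in the whole table, where 37.8% were higher and 36.6% lower. The share of changed members is therefore close to the background and is not a property of this group. Their median log2 fold change was 0.12, beside 0.016 over all genes tested, and the median size of change without its sign was 0.44 on the log2 scale beside 0.59. In 40 of the 48 (83.3%) the values of the 2 groups did not overlap, beside 83.5% of all genes tested. Scaling by total counts, without TMM factors, put the all-gene median at -0.25, that of the members to -0.15, and the split of called members to 9 higher and 20 lower, so directions of small changes are given relative to the TMM scale.

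**Figure D1:**
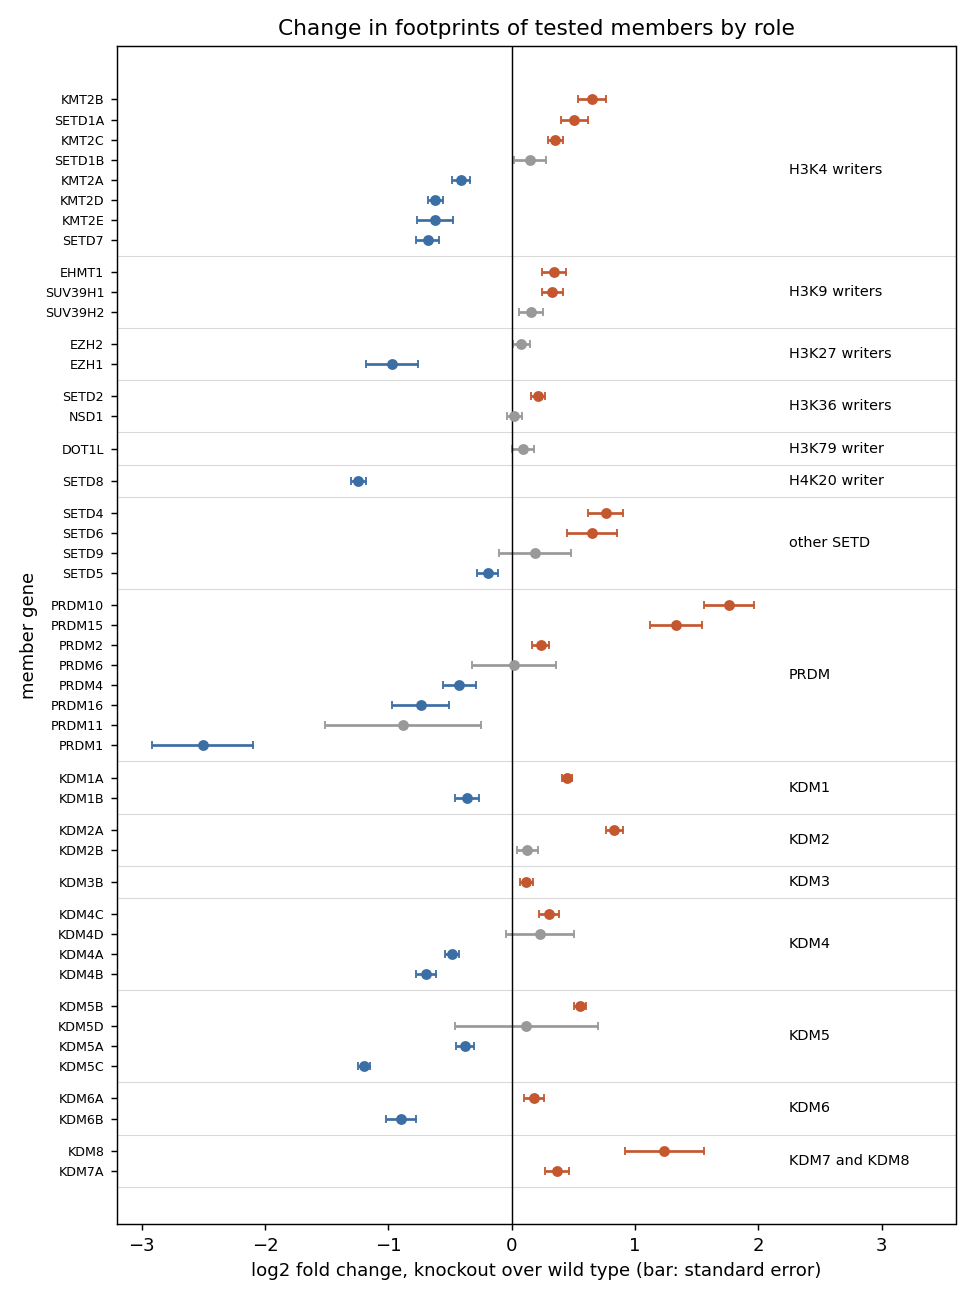
Log2 fold change of tested members in knockout over wild type (horizontal axis), grouped by role, with bars of 1 SE; orange points were higher and blue points lower by the edgeR test, and grey points did not pass. KDM4E, with no counts in the wild type, lies beyond the axis and is left out, and most of the other members sit between -1 and 1.

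A change of at least 2-fold was seen in 8 members, 4 higher (KDM4E, PRDM10, PRDM15 and KDM8) and 4 lower, among them SETD8, KDM5C and PRDM1. This is 16.7% of those tested, beside 27.5% of all genes tested (12.8% higher and 14.7% lower). Each of them had groups that did not overlap, as did 83.5% of all genes tested. Selection by call and fold favours such groups, so this adds no support. SETD8 and KDM5C were abundant, and the others were at or below 4.76 CPM in both wild type libraries.

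KDM4E showed the widest gap of the set. It is a Jumonji eraser of methylated H3K9 from a compact branch of the KDM4 family, which also holds KDM4D and is known mainly from testis. KDM4E had no count in either wild type library and 440, 474 and 475 counts in the 3 knockout libraries, which is 29.05, 29.1 and 30.1 CPM. The mean of 29.4 ± 0.607 CPM (SD, n = 3) was at least 111.9-fold higher than the wild type, whose floor of 3 counts over both libraries is 0.263 CPM (edgeR adjusted p = 8.78e-24). KDM4D, its neighbour on chromosome 11, had 3.20 and 3.475 CPM in the wild type against 4.42, 2.83 and 4.50 CPM in the knockout, with overlapping groups and an edgeR adjusted p of 0.459. In hg38 KDM4E lies on the plus strand at chr11:95025258-95027596 and KDM4D on the same strand at chr11:94973681-94999518.

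The sequences of these neighbours are shown because a footprint is short and the pair is similar, so it matters whether reads of one could be counted for the other. The stretches below are the coding sequence (GENCODE 29 transcripts, 5′ to 3′) of KDM4D from coding base 10 to 69 and of KDM4E from coding base 1 to 60, and capitals mark the 20 of 60 bases that differ.
KDM4D: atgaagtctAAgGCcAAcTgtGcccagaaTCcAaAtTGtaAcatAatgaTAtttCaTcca
KDM4E: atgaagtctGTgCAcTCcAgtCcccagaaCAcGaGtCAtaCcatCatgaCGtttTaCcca
Over 1493 aligned coding bases the pair was 78.3% identical. The longest run without a difference was 51 bases, at coding bases 736 to 786 of KDM4D and 727 to 777 of KDM4E.
shared run: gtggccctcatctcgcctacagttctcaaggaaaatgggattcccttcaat
Windows of 28 bases, the lower end of the footprint size selected on the gel, were compared with the coding sequences of the transcripts counted here. In KDM4E 95.3% of windows, and in KDM4D 95.8%, were found in no other gene among these. Transcripts without a row and the rest of the genome were not searched. KDM4E footprints in the knockout outnumbered KDM4D footprints in each library, and the wild type libraries held KDM4D counts with none for KDM4E.

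**Figure D2:**
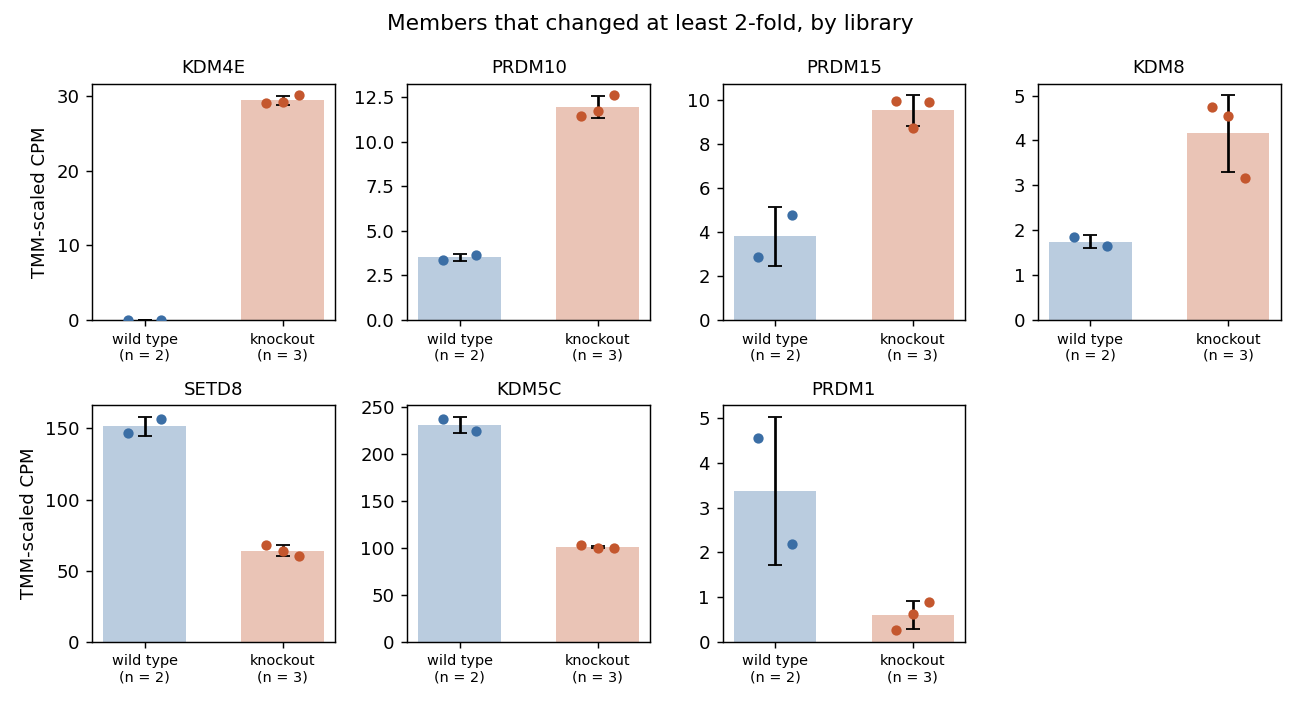
TMM-scaled CPM (vertical axis, from 0, its own scale for each gene) of members that changed at least 2-fold; points are libraries, bars are the means of 2 wild type and 3 knockout libraries, and error bars are 1 SD. The knockout points of KDM4E sit at 29.05 to 30.1 CPM while both wild type libraries are at 0, and SETD8 and KDM5C stay above 60 CPM in every library.

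Writers of H3K4 methylation were the best represented writer class, with 8 members. Of these 3 were higher, 4 lower and 1 did not pass (87.5% called, beside 74.4% of all genes tested). They include the MLL proteins KMT2A and KMT2B, which act at promoters of developmental genes, KMT2C and KMT2D, which monomethylate enhancers, and SETD1A and SETD1B, which lay down most promoter trimethylation. KMT2D had 142 and 138 CPM in the wild type against 94.5, 84.3 and 94.8 CPM in the knockout, a log2 fold change of -0.62 (SE 0.0597, edgeR adjusted p = 3.27e-12). Its closest relative KMT2C moved the other way, from 92.2 and 85.2 CPM to 119, 114 and 108 CPM, a log2 fold change of 0.36 (SE 0.0627, edgeR adjusted p = 3.01e-06). Both pairs of groups were clear of each other, and under total-count scaling KMT2D stayed lower while KMT2C lost its call (log2 fold change 0.08, edgeR adjusted p = 0.218).

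The promoter writers also held both directions by the edgeR test. KMT2A fell, with a log2 fold change of -0.41, and KMT2B rose, with 0.65. SETD1A rose by 0.51 on the log2 scale, a call lost under total-count scaling at 0.24 (edgeR adjusted p = 0.0559), while SETD1B had a log2 fold change of 0.15 and did not pass. KMT2E, a relative with no settled enzyme activity, fell with a log2 fold change of -0.62. SETD7 monomethylates H3K4 and several other proteins. It had 45.8 and 38.6 CPM in the wild type against 25.55, 26.5 and 27.02 CPM in the knockout, a fall by 0.68 on the log2 scale (SE 0.0908, edgeR adjusted p = 1.10e-08). Summed over the class, H3K4 writers had 414 and 403 CPM in the wild type against 376, 359 and 361 CPM in the knockout, a description without a test.

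SETD8, the older symbol of KMT5A, is the sole enzyme that places the first methyl group on H4K20, and its protein rises and falls through the cell cycle. It was the writer with the most footprints per coding length and also the writer with the largest change. SETD8 had 147 and 156 CPM in the wild type against 68.1, 63.8 and 60.6 CPM in the knockout. All 3 knockout libraries were below 69 CPM, and the mean was 2.36-fold lower (log2 fold change -1.24, SE 0.0604, edgeR adjusted p = 1.02e-21). The gene lies on the plus strand at chr12:123383773-123409358 of hg38. Downstream enzymes that add further methyl groups to H4K20 appear under older symbols and outside the rule: SUV420H1 (KMT5B) rose by 0.30 and SUV420H2 (KMT5C) by 0.51 on the log2 scale by the edgeR test.

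H3K9 writers are repressive enzymes. SUV39H1, which builds constitutive heterochromatin, had 38.5 and 37.3 CPM in the wild type against 50.6, 47.0 and 45.7 CPM in the knockout (log2 fold change 0.33, SE 0.0842, edgeR adjusted p = 5.67e-04), but under total-count scaling the change was 0.06 and did not pass. Its paralogue SUV39H2 had 26.1 and 24.7 CPM against 27.8, 29.8 and 27.4 CPM. Those groups were separate but close, and the log2 fold change of 0.16 did not pass (edgeR adjusted p = 0.153). EHMT1, which dimethylates H3K9 in active chromatin, had 28.1 and 26.2 CPM in the wild type against 36.4, 31.4 and 35.7 CPM in the knockout (log2 fold change 0.34, SE 0.0989, edgeR adjusted p = 0.00207). The EHMT1 call was lost under total-count scaling (0.07) and without wild type replicate 2 (0.29, edgeR adjusted p = 0.0504). EHMT1-IT1, an annotated transcript nested within the gene on the same strand, shares coding sequence with it, although EHMT1-IT1 itself held 1 count in all. Among the coding sequences of the counted transcripts, 58.1% of EHMT1's windows of 28 bases were unique.

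EHMT2, the partner with which EHMT1 works as a dimer, was not tested because its counts were 3 and 0 in the wild type against 3, 10 and 12 in the knockout. A second row of the same symbol, whose transcript lies outside the primary assembly, held 3 and 2 counts against 3, 3 and 3. Such low numbers sit beside more than 25 CPM of EHMT1. How the authors' counting treated reads that match several copies of a gene was not given in the sources used here, and its part in the low EHMT2 count was not tested.

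H3K27 is methylated by EZH1 and EZH2, the alternative catalytic subunits of Polycomb repressive complex 2 (PRC2). EZH2, the form of dividing cells, had 73.7 and 71.1 CPM in the wild type against 81.1, 77.9 and 70.8 CPM in the knockout. These values overlapped, with an edgeR adjusted p of 0.300 (log2 fold change 0.08). Under total-count scaling EZH2 passed as lower (-0.19, edgeR adjusted p = 0.0132). EZH1, the form known from resting tissues, had 6.73 and 8.05 CPM in the wild type against 4.16, 3.93 and 3.17 CPM in the knockout. The EZH1 groups did not overlap, and the fall was 0.97 on the log2 scale (log2 fold change -0.97, SE 0.210, edgeR adjusted p = 7.335e-05).

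Marks of transcribed gene bodies are set by SETD2, NSD1 and DOT1L. SETD2, the enzyme of H3K36 trimethylation, had 140 and 127 CPM in the wild type against 152, 160 and 154 CPM in the knockout. Its log2 fold change of 0.22 (SE 0.0554, edgeR adjusted p = 6.27e-04) turned to -0.06 under total-count scaling and did not pass without wild type replicate 2 (0.15, edgeR adjusted p = 0.0814). NSD1, a dimethylase of H3K36, gave overlapping groups, with 87.0 and 83.8 CPM against 91.1, 83.0 and 86.6 CPM (edgeR adjusted p = 0.745). Under total-count scaling NSD1 passed as lower (-0.25, edgeR adjusted p = 7.71e-04). DOT1L, the H3K79 writer, also had overlapping groups, with 41.6 and 38.2 CPM against 44.7, 39.3 and 43.8 CPM (edgeR adjusted p = 0.339). The other NSD enzymes stand in the table under older symbols that the rule does not reach. WHSC1 (NSD2) fell with a log2 fold change of -0.28 and WHSC1L1 (NSD3) with -0.83 by the edgeR test. Of the 4 writers under older symbols 2 were thus higher and 2 lower (100% called, beside 74.4% of all genes tested).

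Of the 18 erasers, 9 were higher, 6 lower and 3 did not pass, with a median log2 fold change of 0.15. That is 83.3% called, beside 74.4% of all genes tested, of which 37.8% were higher. With DESeq2 or limma-voom in place of edgeR, 7 erasers were higher and 6 lower. Under total-count scaling these counts were 5 higher and 7 lower. KDM1A (LSD1), the flavin enzyme that removes H3K4 methylation at enhancers, held the most footprints of the whole set on the CPM scale and per kilobase of coding sequence. It had 429.7 and 419 CPM in the wild type against 601, 573 and 564 CPM in the knockout. Knockout libraries were all higher, by 0.45 on the log2 scale (SE 0.0427, edgeR adjusted p = 1.92e-12). KDM1A took 16.2% to 16.3% of all members' counts in the wild type and 21.4% to 22.1% in the knockout. KDM1B, the other flavin eraser, fell with a log2 fold change of -0.36.

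**Figure D3:**
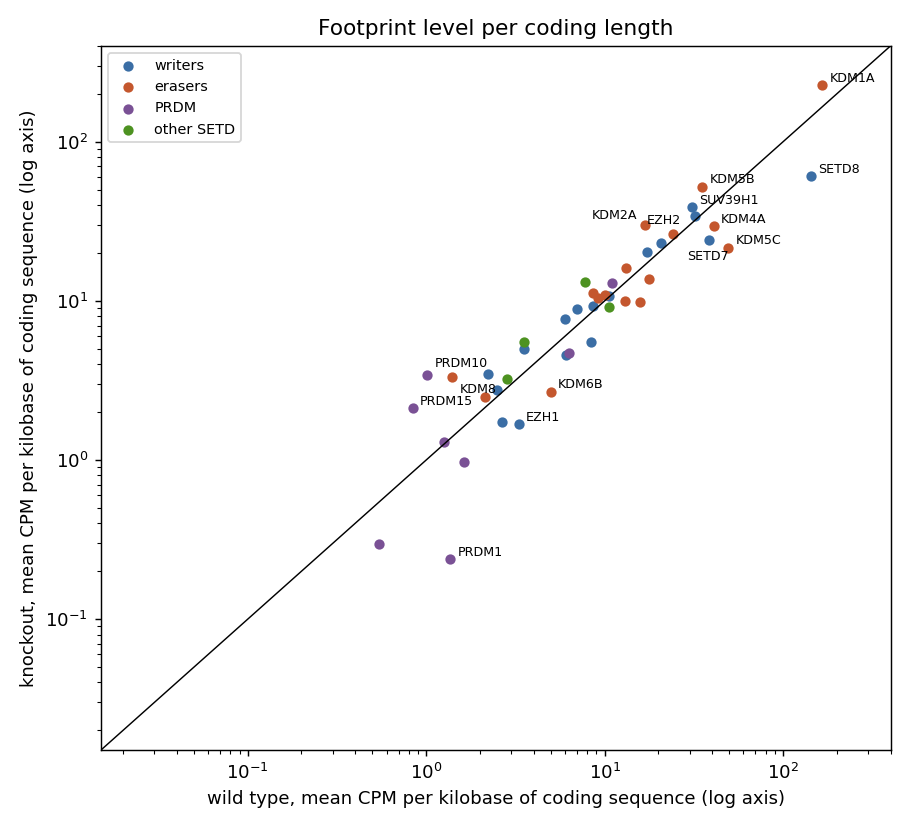
Mean footprint level per coding length (CPM per kilobase) of tested members in wild type (horizontal) and knockout (vertical), both on log axes, with the diagonal marking equal levels; KDM4E, at 0 in the wild type, is among those not drawn. KDM1A lies highest in both groups, and SETD8 and KDM5C lie below the diagonal.

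Levels between genes can be compared only per coding length. On the scale of CPM per kilobase the wild type order began with KDM1A at 166, SETD8 at 144, KDM5C at 49.4, KDM4A at 41.0 and SETD7 at 38.4. The knockout order began with KDM1A at 227, SETD8 at 60.7, KDM5B at 52.0 and SUV39H1 at 38.6, while KDM5C stood further down at 21.6. The median member had 8.10 CPM per kilobase in the wild type, beside 14.7 over all genes tested. These are levels, not differences, and they assume that footprints spread over the whole coding sequence.

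KDM5 enzymes remove the higher methyl states of H3K4, and their members moved in opposite directions. KDM5C, encoded on the X chromosome (minus strand, chrX:53192152-53225422 of hg38), had 237 and 225 CPM in the wild type against 103, 100.1 and 100.2 CPM in the knockout. The knockout mean was 2.29-fold lower (log2 fold change -1.20, SE 0.0511, edgeR adjusted p = 1.13e-23). KDM5B, known for its high level in dividing and cancer cells, rose from 163 and 164 CPM to 235, 244 and 243 CPM (log2 fold change 0.56, SE 0.0502, edgeR adjusted p = 4.55e-13). KDM5A fell with a log2 fold change of -0.38, and KDM5D did not pass. As a result KDM5C had more footprints than KDM5B in both wild type libraries, and KDM5B more than KDM5C in all knockout libraries. Some 98.0% of the windows of 28 bases in KDM5C were unique to it among the coding sequences of the counted transcripts. Most of the shared ones belonged to KDM5D.

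KDM4 erasers other than KDM4D and KDM4E act on H3K9 and H3K36. KDM4A had 132 and 130.2 CPM in the wild type against 94.2, 90.7 and 96.8 CPM in the knockout, a fall by 0.48 on the log2 scale (SE 0.0573, edgeR adjusted p = 7.95e-10). KDM4B fell too, with a log2 fold change of -0.69. KDM4C was higher, with 0.30 on the log2 scale, and lost its call under total-count scaling at 0.03. In the summed KDM4 family the knockout rise of KDM4E was smaller than the falls of KDM4A and KDM4B together: 226 and 230 CPM in the wild type stood beside 211, 208 and 212 CPM in the knockout.

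In the KDM2, KDM3 and KDM7 families, which act mainly on H3K36, H3K9 and H3K27, KDM2A rose. KDM2A, which binds unmethylated CpG islands, had 56.1 and 62.0 CPM in the wild type against 106, 105 and 104 CPM in the knockout. That was the largest rise among erasers above 10 CPM in both groups (log2 fold change 0.83, SE 0.0670, edgeR adjusted p = 1.38e-14). KDM2B, its paralogue in a Polycomb complex, overlapped between groups (log2 fold change 0.13, edgeR adjusted p = 0.179). KDM7A, which acts on H3K9 and H3K27, had 25.4 and 23.4 CPM in the wild type against 32.0, 30.8 and 31.9 CPM in the knockout, a log2 fold change of 0.37 that did not pass under total-count scaling (0.10). KDM3B had 131 and 125 CPM against 139, 141 and 138 CPM. Its log2 fold change of 0.12 (edgeR adjusted p = 0.0460) did not pass without any 1 of the 5 libraries. Under total-count scaling KDM3B passed as lower (-0.15, edgeR adjusted p = 0.0121), so no direction is given for it.

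KDM8, a Jumonji protein now known mainly as a hydroxylase, was among the least abundant erasers. It had 1.85 and 1.65 CPM in the wild type against 4.75, 4.55 and 3.17 CPM in the knockout. The lowest knockout library was above both wild type ones, and the mean was 2.36-fold higher (log2 fold change 1.24, SE 0.320, edgeR adjusted p = 6.65e-04).

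H3K27 erasers gave a fall in 1 member. KDM6B (JMJD3), an inducible enzyme of development and inflammation, had 28.4 and 21.8 CPM in the wild type against 14.4, 12.9 and 13.4 CPM in the knockout (log2 fold change -0.90, SE 0.120, edgeR adjusted p = 1.14e-08). KDM6A (UTX), its X-linked relative, had 39.1 and 38.4 CPM against 43.0, 45.4 and 43.6 CPM. The KDM6A log2 fold change of 0.18 (edgeR adjusted p = 0.0444) did not pass when either wild type library or knockout replicate 2 or 3 was left out, and it was -0.09 under total-count scaling.

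**Figure D4:**
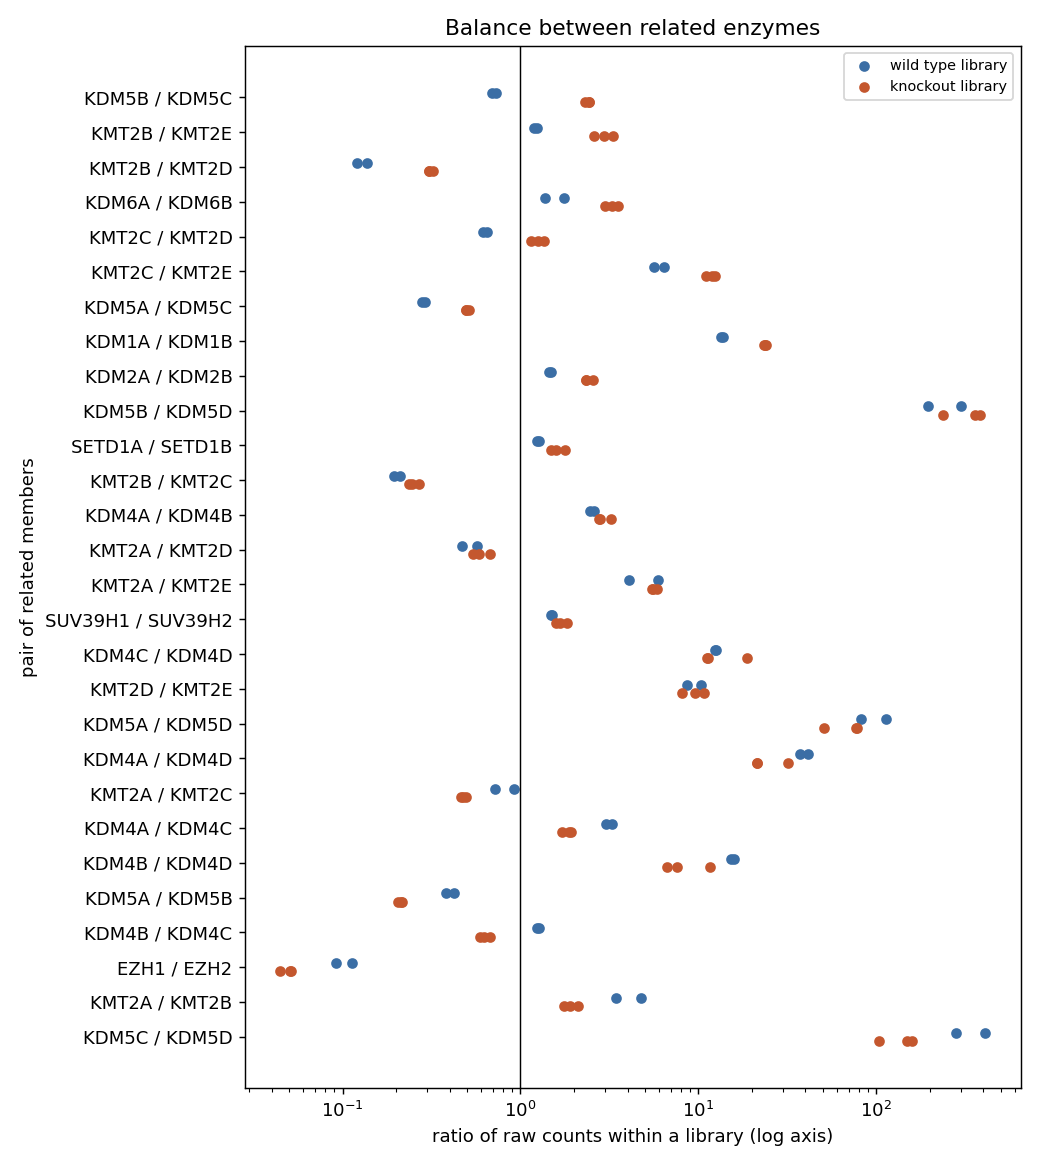
Ratio of the raw counts of 2 paralogues within each library, on a log axis, for pairs of the same enzyme family, in wild type and knockout libraries. KDM5B over KDM5C lies below 1 in both wild type libraries and above 2 in all 3 knockout libraries.

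A ratio of 2 genes within a library does not depend on depth or scaling. The families of these enzymes form 33 pairs, of which 28 had counts for both genes in every library, without KDM4E and EHMT2. The ratio was chosen after the values had been seen, so it is a description without a test. In 23 of the 28 pairs (82.1%) the ratios of the 2 groups did not overlap, beside 82.0% of all pairs of tested genes with counts in every library. The share of shifted pairs is thus the background share and is not a property of paralogues. KDM5B over KDM5C was 0.689 and 0.729 in the wild type against 2.29, 2.44 and 2.42 in the knockout. KMT2C over KMT2D went from 0.652 and 0.618 to 1.26, 1.35 and 1.14. For the H3K27 erasers, KDM6A over KDM6B was 1.37 and 1.76 in the wild type against 2.99, 3.52 and 3.26 in the knockout. EZH1 over EZH2 was 0.0913 and 0.113 in the wild type against 0.0513, 0.0504 and 0.0448 in the knockout. A ratio does not show which gene of a pair changed.

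Of the 14 PRDM genes 9 were tested, with 3 higher, 4 lower and 2 not passing (77.8% called, beside 74.4% of all genes tested). PRDM2 (RIZ1), an H3K9 methyltransferase, was the most abundant of them. It had 59.6 and 54.0 CPM in the wild type against 66.7, 65.8 and 68.2 CPM in the knockout, and its log2 fold change of 0.24 (edgeR adjusted p = 0.00337) did not pass without wild type replicate 2 (0.16, edgeR adjusted p = 0.127) and was -0.04 under total-count scaling. PRDM10, a transcription factor needed for early development, had 3.37 and 3.66 CPM in the wild type against 11.4, 11.7 and 12.6 CPM in the knockout. This was a 3.39-fold rise with tight groups (log2 fold change 1.76, SE 0.1998, edgeR adjusted p = 2.17e-10). PRDM15, a regulator of naive pluripotency, rose from 2.86 and 4.76 CPM to 9.97, 8.72 and 9.89 CPM (log2 fold change 1.33, SE 0.214, edgeR adjusted p = 5.44e-07).

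PRDM1 (BLIMP1), a repressor that governs plasma cells and germ cell precursors, had 4.54 and 2.19 CPM in the wild type against 0.264, 0.614 and 0.888 CPM in the knockout. The highest knockout library was below the lowest wild type one, with a log2 fold change of -2.50 (SE 0.411, edgeR adjusted p = 8.22e-07) that was -1.87 without wild type replicate 1.

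Among the other PRDM genes, PRDM4 (-0.42) and PRDM16 (-0.74), a regulator of brown fat and haematopoietic stem cells, were lower on the log2 scale. PRDM4 lost its call without wild type replicate 2 (-0.34, edgeR adjusted p = 0.0951) and PRDM16 without wild type replicate 1 (-0.65, edgeR adjusted p = 0.0752). PRDM6 and PRDM11 did not pass. The untested PRDM genes were PRDM7, PRDM9, PRDM12, PRDM13 and PRDM14, which are known from meiosis, sensory neurons, the retina and germ cells. They held between 0 and 2 counts in the wild type and between 0 and 2 in the knockout, summed over the libraries of a group, which is under the floor of 3 counts.

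Of the 4 SETD proteins outside the mark classes 2 were higher, 1 was lower and 1 did not pass, with a median log2 fold change of 0.42. That is 75.0% called, beside 74.4% of all genes tested. SETD4 had 9.76 and 10.8 CPM in the wild type against 18.9, 16.1 and 17.3 CPM in the knockout (log2 fold change 0.76, SE 0.142, edgeR adjusted p = 7.54e-06). SETD6, which methylates non-histone proteins, had a log2 fold change of 0.65 that lost its call without wild type replicate 1 (0.59, edgeR adjusted p = 0.0571) and under total-count scaling (0.38). SETD5 had -0.19, which did not pass without wild type replicate 2 (-0.03, edgeR adjusted p = 0.809) or without knockout replicate 3 (edgeR adjusted p = 0.0545), and SETD9 did not pass.

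**Figure D5:**
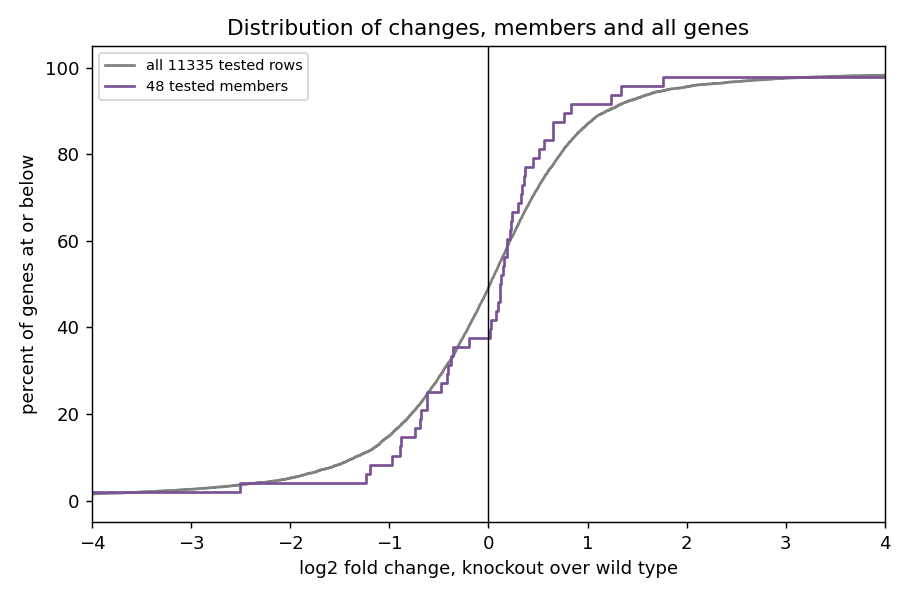
Percent of genes (vertical axis) at or below each log2 fold change of knockout over wild type (horizontal axis), as a grey curve for all rows tested and a purple curve for the tested members. The curves reach their medians at 0.016 and 0.12, and the members' curve is steeper near 0.

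Counts summed by role gave the size of each class. All members together made up 0.289% to 0.295% of counts in the wild type and 0.245% to 0.252% in the knockout, whereas after TMM scaling the sums were 2582 to 2637 CPM and 2638 to 2719 CPM. The direction of the total thus turned with the scaling. Writers summed to 976 to 1004 CPM in the wild type and 889 to 933 CPM in the knockout. Erasers summed to 1445 to 1478 CPM in the wild type and 1572 to 1610 CPM in the knockout, a gap smaller than the difference in KDM1A alone. As a share of raw counts, erasers went the other way, from 0.162% to 0.166% in the wild type down to 0.146% to 0.149% in the knockout. These sums have no test.

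Most writers work in complexes, and 52 partners and related enzymes were read in the same fit, of which 23 were higher and 18 lower (78.8% called, beside 74.4% of all genes tested). Among 12 subunits of the COMPASS complexes, which hold the H3K4 writers, 5 were higher, 4 lower and 3 did not pass. ASH2L, a core subunit that stimulates the enzyme, had 328 and 333 CPM in the wild type against 187, 194 and 199 CPM in the knockout, a fall by 0.77 on the log2 scale (SE 0.0464, edgeR adjusted p = 1.14e-18). WDR82, which brings SETD1 complexes to RNA polymerase II, rose from 118 and 113 CPM to 161, 168 and 174 CPM (log2 fold change 0.54, SE 0.0565, edgeR adjusted p = 3.01e-11). WDR5, another core subunit, rose by 0.53 on the log2 scale, so the core held members of both directions.

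In the PRC2 list of 9 subunits, 5 were higher (JARID2, PHF19, MTF2, EED and RBBP7), none was lower and 4 did not pass, with a median log2 fold change of 0.37. The called share of 55.6% is below the 74.4% of all genes tested, of which 37.8% were higher. With total-count scaling 5 were higher and 3 lower, and with DESeq2 5 were higher and none lower. JARID2, an accessory subunit that recruits PRC2, had 11.1 and 10.1 CPM in the wild type against 30.8, 29.9 and 26.8 CPM in the knockout (log2 fold change 1.46, SE 0.128, edgeR adjusted p = 2.14e-13). MTF2, which guides PRC2 to CpG islands, had a log2 fold change of 0.82 (edgeR adjusted p = 2.05e-12). SUZ12, the scaffold subunit, had -0.05 and did not pass.

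KDM1A acts with the CoREST corepressor. Of its 8 listed partners 3 were higher, 4 lower and 1 did not pass (87.5% called, beside 74.4% of all genes tested). RCOR1, the CoREST scaffold, had 54.5 and 56.7 CPM in the wild type against 118, 119 and 116 CPM in the knockout (log2 fold change 1.08, SE 0.0661, edgeR adjusted p = 2.40e-18). HDAC1, the deacetylase of the complex, fell with a log2 fold change of -0.72 (edgeR adjusted p = 5.02e-17). Of 8 further writers outside the rule 4 were higher and 2 lower (75.0% called, beside the same 74.4%). ASH1L, an H3K36 writer, was at 123 CPM in the wild type against 61.5 CPM in the knockout (log2 fold change -1.003, edgeR adjusted p = 3.96e-18). SMYD3 fell with a log2 fold change of -0.79 (edgeR adjusted p = 3.16e-14).

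Of 7 further erasers 2 were higher and 4 lower (85.7% called, beside 74.4% of all genes tested). PHF2, an eraser related to KDM7A, fell with a log2 fold change of -1.30 (edgeR adjusted p = 1.68e-14), and MINA (RIOX2) with -0.75 (edgeR adjusted p = 5.17e-11). Supply of the methyl donor was covered by 4 genes, 2 higher and 2 lower (100% called, beside the same 74.4%). AHCY, which clears the by-product S-adenosylhomocysteine, rose from 449 to 759 CPM (log2 fold change 0.76, edgeR adjusted p = 3.38e-19). AHCYL1, a related protein, fell from 298 to 143 CPM (log2 fold change -1.06, edgeR adjusted p = 1.51e-22). KDM3A, KDM4F, PRDM8, DPY30, PSIP1 and SMYD1 were not analysed here.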

How the data were processed

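Ribosome footprints of 5 HAP1 libraries were used, 2 wild type and 3 METTL18 knockout, grouped by the genotype in the labels. Per the labels' protocols, monosomes were isolated after RNase I digestion and short footprints were cut from a gel. Per the submitters' processing notes Bowtie and hg38 were used; for the counting tool and annotation, nothing is given in the sources used here. The table the authors deposited holds raw counts for 14084 rows, each a transcript with a symbol; 39 symbols had several rows, and the row with most counts was used. Members and gene lists were chosen with earlier results of these data known, so lists are described by counts and medians only.

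The test was the robust quasi-likelihood fit of edgeR 4.0.16 under R 4.3.3 (TMM factors, filterByExpr at min.count 10 and min.total.count 15, group as sole term, Benjamini-Hochberg over 11335 rows, threshold 0.05). SE is the log2 fold change divided by the square root of F. A group at 0 was set to a floor of 3 counts over the group. GENCODE 29 gave positions, coding lengths and sequences for 99.1% of rows. Values in every library are given for members with a change of at least 2-fold, with 0 counts in a group, leading their class by adjusted p or by level per length, or in the EZH, EHMT and SUV39H pairs, and for a few others chosen after their values were seen (KMT2C). From each partner list the 2 genes with the smallest adjusted p are named; other names there were chosen after their values were seen. Libraries held 4887380 to 17629199 counts, which limits precision. On simulated counts with 11017 genes the test found 84% of genes changed 1.5-fold and 92% of those changed 2-fold, with 6.5% of calls false. In that simulation only a small part of the genes was changed, whereas 74.4% of genes tested were called in the libraries. Every simulated gene was also given the same dispersion, the spread between libraries beyond counting noise. Whether these shares hold for the calls reported from the libraries was not tested. Alternatives with limma 3.58.1 and DESeq2 1.42.0, other scalings, filters and left-out libraries were run. The result of 1 member is not reported here.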

Additional observations from a re-analysis of the deposited data

How the results depend on the processing

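All 17 alternatives were chosen together with the design. Of the 37 called members, 11 kept their call under every one of them, the required fold above 1.5 included. That requirement left 5 members higher and 6 lower, 2011 and 2129 of all genes, and 6 and 10 of the partners and related genes. Total-count scaling gave 9 members higher and 20 lower and 15 partners and related genes higher. It turned the sign of 14 members, of which KDM3B (-0.15), KDM6A (-0.0882), PRDM2 (-0.0361) and SETD2 (-0.0559) had passed. EZH2 (-0.19), DOT1L (-0.18) and SUV39H2 (-0.115) were among those that had not. Under total-count scaling KDM3B, called higher on the TMM scale, passed as lower (edgeR adjusted p = 0.0121). So did EZH2 and NSD1 (-0.25), which had not been called (edgeR adjusted p = 0.0132 and 7.71e-04). The shift of all genes is part of that scaling. Leaving out 1 library each time gave 15 to 19 members higher and 15 to 17 lower, 3802 to 4180 and 3589 to 4104 of all genes, and 19 to 23 and 15 to 19 of the partners. DESeq2 called 18 members higher and 16 lower. With the replicate block, 20 members were higher and 17 lower, and 4322 and 4154 of all genes. Deviations of same-numbered libraries from their group means correlated at 0.00853 and 0.0231. These values show no shared deviation by number. They cannot decide whether the libraries were paired, which the labels do not state. With 2 wild type libraries, genes under about 3 CPM rest on few counts, and 6 members could not be tested.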

Other observations

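Writers and erasers are long genes. The tested members had a median coding length of 3477 bases, beside 1431 over all genes tested. Among all genes with at least 3000 coding bases, 441 were higher and 826 lower in the knockout by edgeR's quasi-likelihood test out of 1619 tested, with a median log2 fold change of -0.28. The 28 tested members of that length had 13 higher and 10 lower, with a median of 0.12. Across genes the Spearman correlation of coding length with log2 fold change was -0.165 over all genes tested and -0.0046 over the 48 members; genes share libraries and are not independent, so no p is given.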
